A study of Mus musculus with 6 samples.

Results

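The genes described here carry fatty acids inside cells, release them from lipoproteins, coat the lipid droplet or are secreted by fat cells. They were chosen by name, as all probe sets annotated with exactly 1 of 10 gene symbols: the fatty acid binding protein genes Fabp3, Fabp4, Fabp5 and Fabp9, the lipoprotein lipase gene Lpl, the lipid droplet genes Cidec, Plin1 and Plin4, and the hormone genes Adipoq and Retn. The value table held 16 such probe sets, for 9 of the 10 genes, among 45037 probe sets tested. No probe set of Plin1 was matched, and it was not analysed here.

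Fatty acid binding proteins are small cytoplasmic barrels that hold a fatty acid and hand it to enzymes, membranes or nuclear receptors. Fabp4 is known from adipocytes, macrophages and capillary endothelium, Fabp5 from epidermis and macrophages, and Fabp3 from heart and skeletal muscle. Fabp9 is the testis member of the family, made by germ cells and found in the sperm head. In fat, lipoprotein lipase frees fatty acids from circulating triglyceride, and perilipins and Cidec control how they are stored in the droplet. Adiponectin, the product of Adipoq, and resistin, the product of Retn, are hormones of the fat cell.

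RNA of whole testis from 5-week-old mice was measured on Affymetrix arrays, 3 from wild-type mice and 3 from Phf13 knockout mice. The labels give no further allele, strain or design of the deletion, and no treatment. They number the arrays within a genotype and do not say that different animals were used. The p-values therefore cover the spread between these arrays alone, which may be technical. Values are the deposited log2 values, and a difference of 1 is a doubling. All differences are knockout minus wild type. Because whole testis is mixed tissue, fewer cells of a type and less RNA per cell cannot be told apart.

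The 6 arrays were alike over all probe sets, with correlations from 0.989 to 0.998. The targeted gene Phf13 lay between 9.47 and 9.56 in wild type and between 6.55 and 6.71 in knockout, so it went with the label on every array. Genes of elongating spermatids were bright, with list means from 13.19 to 13.25, as the label of whole testis calls for. The arrays fell into 2 sets by the 18S ribosomal RNA controls: wild type 1, wild type 2 and knockout 1 had means from 12.03 to 12.67, and wild type 3, knockout 2 and knockout 3 had means from 9.69 to 10.71. The second set also carries the highest, consecutive codes in the titles, called the last run of codes here. Each set held both genotypes, and inside each the knockout arrays had the lower 18S mean. The control signals for RNA quality split the same way: the 3′ minus 5′ value of actin was 0.75 to 0.89 in the first set and 0.56 to 0.59 in the second, and that of Gapdh 0 to 0.14 and -0.27 to -0.20.

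Fabp4 showed the widest spread of all members, low in wild type and high in knockout, yet its difference did not pass the test over the whole array. Its brightest probe set stood at 5.47, 4.23 and 6.51 on wild-type arrays 1 to 3 and at 6.89, 7.93 and 8.02 on knockout arrays 1 to 3. All 3 knockout arrays lay above all 3 wild-type arrays, but the gap between wild type 3 and knockout 1 was only 0.38, while the wild-type arrays themselves spanned more than that. The means were 5.40 ± 1.14 and 7.61 ± 0.63 (SD, n = 3 each), a difference of 2.21 with a standard error of 0.53, or 4.63-fold. The limma adjusted p was 0.188. Another bright probe set ran the same course, from 4.79, 3.80 and 5.90 in wild type to 6.31, 7.46 and 7.52 in knockout, and differed by 2.27 (limma adjusted p = 0.178). The remaining probe sets of Fabp4 were dim and differed little. They stood between 2.81 and 3.74 on all arrays, at the 14.1 and 24.0 percentile of all probe sets by mean level, and differed by 0.18 and 0.17.

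Fabp4 was higher in knockout in both sets of arrays. It differed by 2.04 among the earlier title codes, where knockout 1 was set against wild type 1 and wild type 2, and by 1.47 in the last run, where knockout 2 and knockout 3 were set against wild type 3. Neither value has a test. The order of the arrays by Fabp4 ran from wild type 2 through wild type 1, wild type 3, knockout 1 and knockout 2 to knockout 3. Their 18S means, in the same order, were 12.67, 12.34, 10.71, 12.03, 9.87 and 9.69. The 3′ minus 5′ values of actin, in that order, were 0.80, 0.89, 0.56, 0.75, 0.58 and 0.59. The part of the 18S level and of RNA quality in the values of Fabp4 and Lpl was not tested. Leaving out wild type 3, the wild-type array nearest to the knockout, gave a difference of 2.76 and a limma adjusted p of 0.0149. That left no wild-type array in the last run, which holds knockout 2 and knockout 3. In this fit 2.61% of all probe sets passed, against 0.0999% with all 6 arrays.

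Fabp5 was the member nearest to the threshold, with a smaller and more even difference. The brightest probe set stood at 8.47, 8.53 and 8.64 in wild type and at 9.08, 9.34 and 9.46 in knockout. The groups did not overlap, and the gap of 0.44 between them was larger than the range of either group. The difference was 0.75 with a standard error of 0.12, or 1.68-fold, and limma's adjusted p was 0.0844. The other probe set, at 6.60, 6.76 and 7.17 in wild type and 7.14, 7.59 and 7.64 in knockout, overlapped through wild type 3 and knockout 1 and differed by 0.61 (limma adjusted p = 0.221). Within the 2 sets of arrays the brightest probe set differed by 0.58 and 0.76. The limma adjusted p was 0.0216 without wild type 3 and 0.0418 without knockout 1. Over 14 alternative fits it ran from 0.0079 to 0.401 and was under 0.05 in 6.

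**Figure D1:**
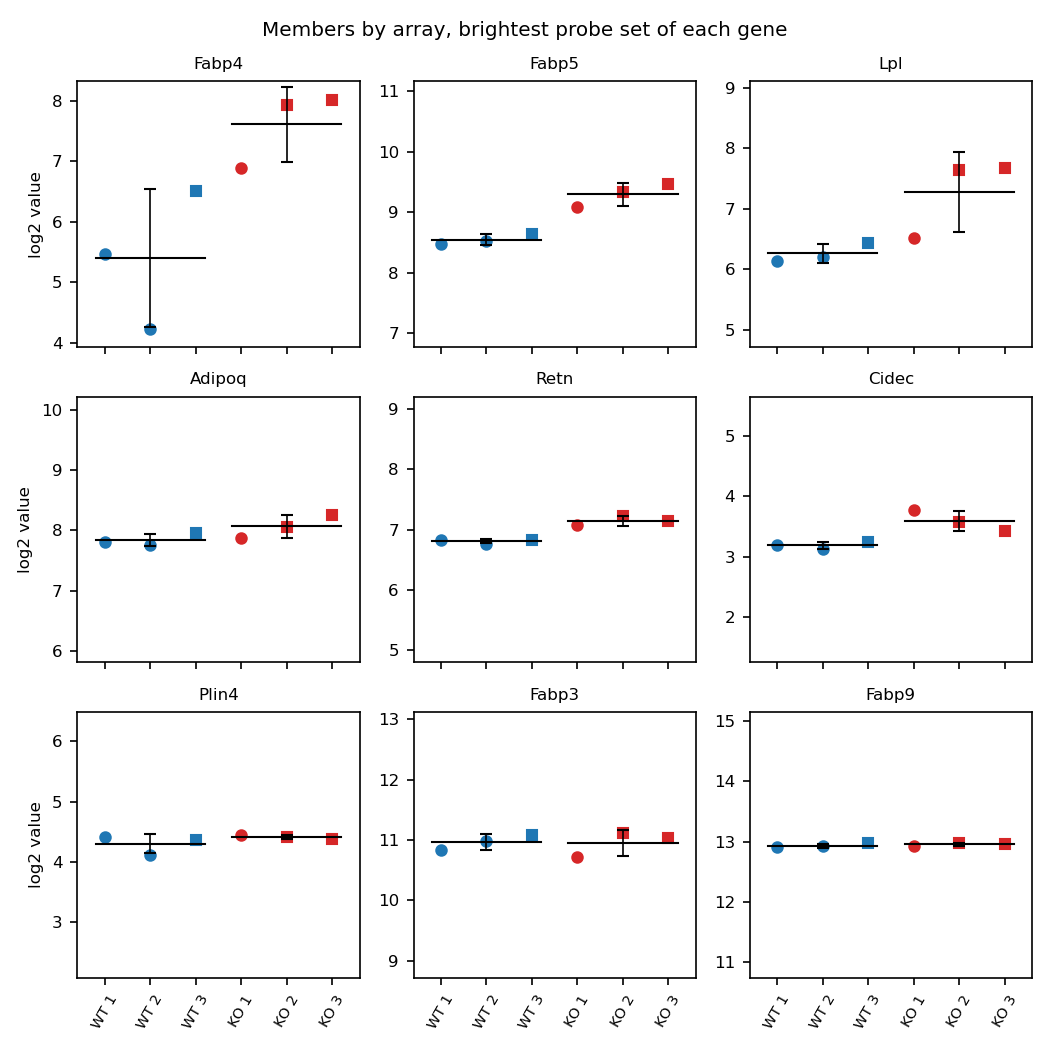
Log2 value (vertical axis, same height in every panel) of the brightest probe set of 9 genes on 6 arrays, wild type (WT) in blue and knockout (KO) in red, with the mean as a line and the SD as a bar (n = 3). Circles are the arrays of the earlier title codes and squares those of the last run. Fabp4 runs from 4.23 to 8.02, whereas Fabp9 stays between 12.91 and 12.98.

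Fabp9, the germ cell member, was bright and nearly level. Its brightest probe set stood at 12.91, 12.92 and 12.97 in wild type and at 12.93, 12.98 and 12.96 in knockout, at the 99.9 percentile of all probe sets. The 6 values lay within 0.07 of each other and the groups overlapped. The difference was 0.023, with a 95% interval from limma, not adjusted for the number of tests, of -0.16 to 0.21 (limma adjusted p = 0.921). A dimmer probe set of Fabp9 stood at 9.26, 9.67 and 9.92 in wild type and at 9.72, 9.70 and 9.69 in knockout. It spread more among wild-type arrays than between genotypes and differed by 0.09, with an interval of -0.27 to 0.44.

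Fabp3, the muscle-type carrier, was also bright in these testes and did not pass. Its brightest probe set stood at 10.83, 10.98 and 11.08 in wild type and at 10.71, 11.12 and 11.03 in knockout, at the 97.0 percentile. Knockout 1 was the lowest array and knockout 2 the highest, so the groups overlapped fully. The difference was -0.01, with an interval of -0.30 to 0.28, and that of the dim second probe set was -0.02. With quantile normalization the brightest probe set differed by 0.014, so its sign is not fixed.

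The contrast between the adipocyte and the testis carrier was taken within each array, as Fabp4 minus Fabp9, because levels of different probe sets cannot be set against each other. This within-array value was -7.44, -8.69 and -6.46 in wild type and -6.04, -5.05 and -4.94 in knockout. The groups did not overlap, and the value differed by 2.19 between genotypes (exact two-sided permutation p = 0.1, the smallest possible for 3 against 3). This design can therefore not reach the threshold of 0.05 with that test. Fabp9 spanned only 0.07 over the 6 arrays, so the contrast largely restates the values of Fabp4 and is no separate evidence. The contrast was 2.03 among the earlier title codes and 1.47 in the last run, and Fabp9 itself differed by 0.015 and 0 there. With the mean of all probe sets of each gene it was 1.15, since the dim probe sets of Fabp4 then count as much as the bright ones.

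Fabp4, Fabp5 and Fabp9 lie together on chromosome 3. In the RefSeq gene table of assembly GRCm38.p6, the protein-coding genes in order are Fabp5, Pmp2, Fabp9, Fabp4 and Fabp12, all of the same family. The neighbours Pmp2 and Fabp12, named here after their values were seen, did not share the course of Fabp4. Pmp2, a lipid binding protein of myelin, lay between 6.15 and 6.38 on all arrays and differed by -0.01. Fabp12 lay between 9.50 and 9.86 and differed by -0.19 (limma adjusted p = 0.391).

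Lpl was higher on all 3 knockout arrays on both of its probe sets, without passing the test. The brightest stood at 6.14, 6.21 and 6.44 in wild type and at 6.51, 7.64 and 7.68 in knockout. Knockout 1 lay only 0.07 above wild type 3, so the groups were barely apart. The difference was 1.01 with a standard error of 0.28, or 2.02-fold (limma adjusted p = 0.214). The dimmer probe set, at 4.14, 3.84 and 4.04 in wild type and 4.44, 4.69 and 4.90 in knockout, differed by 0.67 (limma adjusted p = 0.154). Within the sets the brightest probe set differed by 0.34 among the earlier codes and by 1.22 in the last run, and the dimmer one by 0.45 and 0.76. Without knockout 1, the knockout array nearest to wild type and the only one of the earlier codes, the limma adjusted p was 0.011. Over 14 alternative fits it ran from 0.011 to 0.533 and was under 0.05 in 2.

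The lipid droplet members were dim. Cidec, whose product lets droplets fuse and grow, stood at 3.20, 3.13 and 3.24 in wild type and at 3.77, 3.58 and 3.43 in knockout. The groups did not overlap, and in contrast to Fabp4 the highest array was knockout 1. The difference was 0.40 (SE 0.11, limma adjusted p = 0.208). Its level, at the 20.2 percentile of all probe sets, is dim: the lower quartile of the arrays ran from 3.66 to 3.75. Whether it lies above background was not measured. Plin4, a coat protein of small droplets, stood at 4.42, 4.12 and 4.36 in wild type and at 4.44, 4.42 and 4.38 in knockout. These groups overlapped, with a difference of 0.11 and an interval of -0.12 to 0.35.

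The hormone members differed little. Retn stood at 6.83, 6.77 and 6.82 in wild type and at 7.07, 7.23 and 7.14 in knockout. Both groups were tight and apart by 0.24, and the difference of 0.34 had a standard error of 0.09 (limma adjusted p = 0.198). Adipoq stood at 7.81, 7.76 and 7.95 in wild type and at 7.87, 8.06 and 8.26 in knockout. Its groups overlapped at wild type 3 and knockout 1, and it differed by 0.22 (limma adjusted p = 0.409), with an interval of -0.05 to 0.49. Over the 6 arrays Adipoq spanned 0.50, against 3.79 for Fabp4. Like Fabp4, it was lowest on wild type 2 and highest on knockout 3.

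The stretches of 100 bases just before the annotated start are shown for Adipoq, Retn, Cidec and Plin4. These are the adipocyte members measured here that the RefSeq promoter table of GRCm38.p6 holds. No link between these letters and the differences of the genes was tested. The table matched 6 of the 10 genes. Fabp4, Fabp5, Fabp9 and Lpl were not matched. Each is written 5′ to 3′ on the gene's strand, with matches to CCAAT, the box bound by nuclear factor Y, on either strand in capitals. The upstream one of the table's Cidec starts is given.
Adipoq, chr16:23146436-23146535, + strand: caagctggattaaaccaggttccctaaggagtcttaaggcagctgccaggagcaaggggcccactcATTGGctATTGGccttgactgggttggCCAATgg
Plin4, chr17:56109783-56109882, - strand: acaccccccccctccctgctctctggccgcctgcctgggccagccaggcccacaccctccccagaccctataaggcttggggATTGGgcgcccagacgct
Retn, chr8:3655670-3655769, + strand: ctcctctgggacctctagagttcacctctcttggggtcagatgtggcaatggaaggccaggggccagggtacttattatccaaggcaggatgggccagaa
Cidec, chr6:113435761-113435860, - strand: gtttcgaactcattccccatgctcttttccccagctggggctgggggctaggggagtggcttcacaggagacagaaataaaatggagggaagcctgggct

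The Adipoq stretch held 3 matches to CCAAT and the Plin4 stretch 1. A match was present in 18.9% of all 32851 stretches of this length in the table, so it is common. TGACGT, the half-site of the cAMP response element, was present in 4.09% of all stretches and TATAAA, the TATA box, in 5.56%. Both strands were searched, and neither of these was found in a member's stretch. A match is a description of letters in this window and no measure of binding.

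Counted over the members, 0 of 16 probe sets passed limma's adjusted threshold of 0.05, against 0.0999% of all probe sets. At an unadjusted p under 0.05, 8 of 16 were higher, of Fabp4, Fabp5, Lpl, Retn and Cidec, against 6.81% of all probe sets, and 0 of 16 were lower, against 8.31%. Groups did not overlap with the knockout higher for 7 of 16 probe sets, against 8.62% of all, and with the knockout lower for 0, against 10.7%. Of the 16, 14 had a difference above 0, against 50.6% of all. The median difference was 0.28 over the members and 0.0033 over all probe sets. Probe sets of 1 gene are not independent. By gene, the groups did not overlap on the brightest probe set, with the knockout higher, for 5 of 9 genes. The share over all genes by their brightest probe set was not taken, so this count has no like background.

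**Figure D2:**
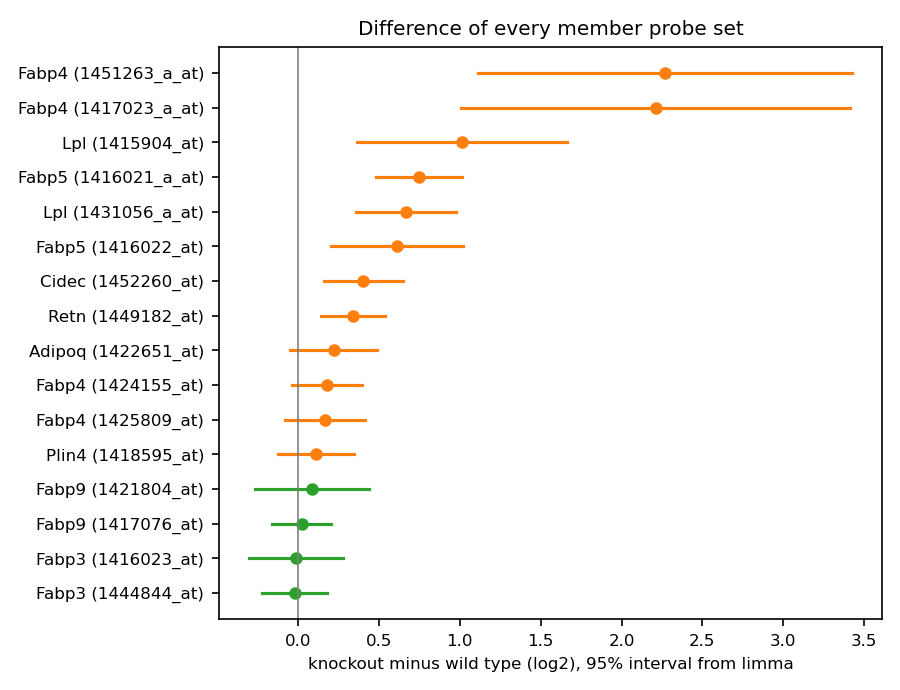
Knockout minus wild type on the log2 scale (horizontal axis) for the 16 probe sets, with limma's 95% interval as a bar, not adjusted for the number of tests. Fabp3 and Fabp9 are in green and the other genes in orange. The bright probe sets of Fabp4 differ by 2.21 and 2.27, and the intervals of all 4 green probe sets span 0.

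Leaving out single arrays changed whether any member passed, as did some of the other settings given further below. Without wild type 3, 4 of 16 probe sets passed, those of Fabp5 and the bright ones of Fabp4, against 2.61% of all probe sets. Without knockout 1, 2 of 16 passed, 1 each of Lpl and Fabp5, against 0.369% of all. Leaving out any of the other arrays gave 0.

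Genes whose values followed Fabp4 over the 6 arrays were sought among 1071 probe sets that spanned at least 1 log2 unit. The closest was Car3, a cytosolic carbonic anhydrase abundant in fat and muscle, with a Pearson r of 0.996. Car3 stood at 6.62, 5.09 and 7.35 in wild type and at 8.17, 9.30 and 9.40 in knockout, so the arrays had the same order as for Fabp4. Its difference was 2.60 (SE 0.54, limma adjusted p = 0.158). Of its other probe sets, the brightest differed by 1.26, and 2 dim ones, between 2.47 and 3.34, by 0.02 and 0.07. Next came the cytochrome P450 gene Cyp2e1 (r = 0.969, from 3.61 to 5.66), Tmeff1 (r = 0.960), the sulfotransferase gene Sult1a1 (r = 0.943) and the noncoding gene Grip1os1 (r = 0.943). In all, 4 genes had an r above 0.95, and 1 gene model without a proper name was passed over. For the brightest probe sets of the other members, r with Fabp4 ran from 0.28 for Fabp3 to 0.90 for Fabp5. It was 0.89 for Retn, 0.87 for Adipoq and 0.86 for Lpl. These correlations rest on 6 arrays that share genotype and array set, so they are descriptions only.

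The genes closest to Fabp9 by the same measure were Cela3b (r = 0.980), Gsta3 (r = 0.973), Serpina1f (r = 0.961), Retnla (r = 0.937) and Sectm1a (r = 0.934). Gsta3, a glutathione transferase gene, ran from 6.84 on wild type 1 to 8.01 on knockout 2, and Serpina1f, a serpin gene, from 3.20 on wild type 1 to 4.42 on wild type 3. Fabp9 itself spanned 0.07 on these arrays, and the deposited values have 2 decimals. Its own dimmer probe set followed the brightest at r = 0.68 only. These correlations, too, are descriptions only.

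**Figure D3:**
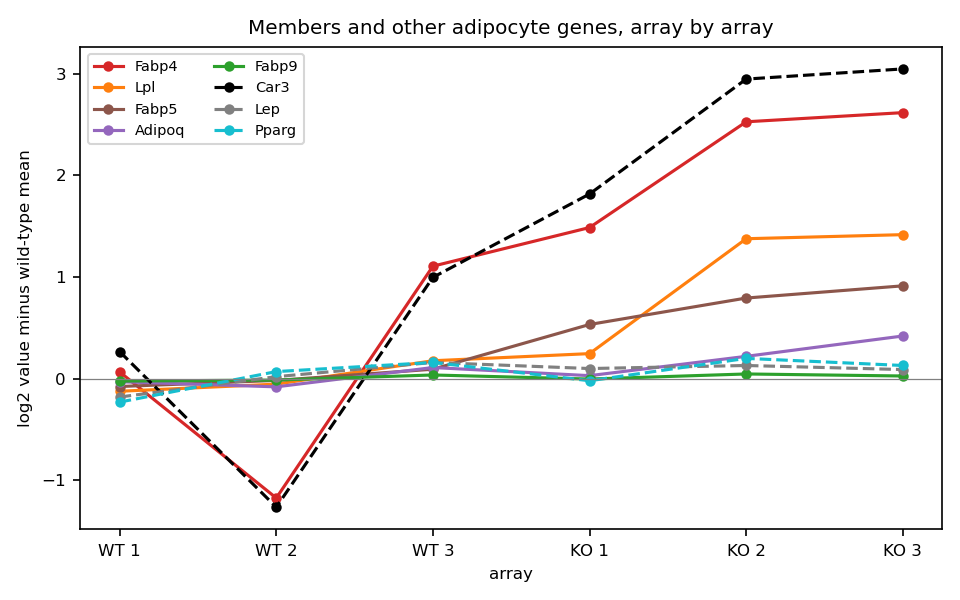
Log2 value minus the gene's wild-type mean (vertical axis) on the 6 arrays for 5 members (solid lines) and for Car3, Lep and Pparg (dashed lines), other genes of the fat cell. Fabp4, Car3 and Adipoq are lowest on wild type 2 and highest on knockout 3, but Adipoq spans only 0.50. Lep, Pparg and Fabp9 stay near 0.

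Of the other adipocyte markers, Car3 alone had an unadjusted p under 0.05, where 6.81% of all probe sets were higher and 8.31% lower. The list held 12 genes that are no members, 11 of them measured, and 9 of the 11 had a difference above 0, with a median of 0.10. The list mean ran from 5.65 to 5.96 in wild type and from 6.04 to 6.14 in knockout. Without Car3, a list taken after its values were seen, the means overlapped, from 5.69 to 5.83 in wild type and 5.71 to 5.83 in knockout, and the median of the 10 genes was 0.092. Pck1, of glyceride and glucose synthesis, lay between 2.89 and 3.27 and differed by -0.19. Lep, Pparg, Adig, Aqp7 and Ucp1 are named here after their values were seen. The leptin gene Lep stood between 2.77 and 3.11, at the 14.4 percentile, and differed by 0.11. Pparg, the master regulator of fat cell genes, differed by 0.10. Adig and Aqp7, also counted as fat markers, were bright at 9.32 to 9.67 and 10.39 to 10.69 and differed by 0.11 and 0.047. None of the 11 passed in limma. Among brown fat markers, Ucp1 lay between 4.33 and 4.59, and the list median was 0.17. Ppargc1a differed by -0.39 and Cidea by 0.50.

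Markers of the other cells that can hold Fabp4, Fabp5 or Lpl were measured beside them. Of 12 endothelial genes, 8 were above 0 with a median of 0.05, and list means ran from 5.47 to 5.55 in wild type and 5.51 to 5.65 in knockout. Gpihbp1, which anchors lipoprotein lipase to capillaries, differed by 0.36 and Vwf by -0.41. All 10 macrophage genes were above 0, with a median of 0.19. None of these 10 reached an unadjusted p under 0.05 in limma. Their list means were 6.32 to 6.53 in wild type and 6.16 to 6.96 in knockout, with Csf1r at 0.35 and Mrc1 at 0.20.

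The somatic lists of the testis itself held more higher than lower genes. At an unadjusted p under 0.05, 6.81% of all probe sets were higher and 8.31% lower. Of 8 genes of peritubular cells and stroma, 4 were higher at an unadjusted p under 0.05, with a median of 0.33, and list means of 7.42 to 7.75 in wild type and 7.80 to 8.18 in knockout. In it the proteoglycan gene Dcn differed by 0.95 and the smooth muscle actin gene Acta2 by 0.49. Of 10 Sertoli genes 7 were higher at that p, with a median of 0.42, list means of 8.37 to 8.38 against 8.70 to 8.79, Cst12 at 0.58 and Inhbb at 0.41. Of 5 measured Leydig genes 2 were, with a median of 0.28, and they were Hsd3b1 at 0.56 and Star at 0.49. Leydig list means overlapped, at 8.80 to 9.12 and 9.00 to 9.50. In the spermatocyte list 3 of 8 genes were lower at that p, with a median of -0.23, Aurkc at -0.42 and Ccna1 at -0.28. Round and elongating spermatid lists had medians of 0.028 and 0.0033, with Catsper3 at -0.18, Acrv1 at 0.08, Gapdhs at -0.12 and Smcp at -0.09. Epididymis genes had a median of 0.02, with list means of 3.69 to 4.10 and 3.80 to 3.95, Cst11 at -0.12 and Lcn8 at 0.08. In limma, adjusted over all probe sets, 0 genes of these lists passed. Within the earlier title codes and the last run, in this order, list medians were 0.17 and -0.035 for adipocyte, -0.005 and 0.098 for endothelial, -0.095 and 0.33 for macrophage and -0.085 and 0.35 for Leydig genes, each of which turned sign. They were 0.08 and 0.29 for brown adipocyte, 0.14 and 0.68 for peritubular and stromal and 0.36 and 0.41 for Sertoli genes. For epididymis genes, which were dim, they were 0.225 and -0.255 and also turned sign. The part of these cell types in the values of Fabp4, Fabp5 and Lpl was not tested.

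The genes that work beside the members were also measured. In limma, adjusted over all probe sets, 0 of their genes passed. At an unadjusted p under 0.05, 6.81% of all probe sets were higher and 8.31% lower. Among 10 other intracellular lipid binding proteins, 4 were above 0, the median was -0.017, and the 2 with an unadjusted p under 0.05 were both higher: the retinol carrier gene Rbp7 at 0.51 and the brain-type Fabp7 at 0.39. Among 9 other proteins of the droplet surface or its assembly, 1 was higher at that p, Cidea at 0.50, and the median was 0.033. Fitm1, of droplet formation, differed by 0.20. The perilipin genes Plin2 and Plin5, named after their values were seen, differed by -0.10 and 0.063.

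Genes of triglyceride synthesis and breakdown differed in both directions. At an unadjusted p under 0.05, 2 of 10 synthesis genes had higher and 1 had lower values, against 6.81% and 8.31% of all probe sets. The list median was 0.0033. Mogat1, an acyltransferase for monoacylglycerol, differed by 0.45, and Gpam, of the first step of glycerolipid synthesis, by 0.30. Of 9 lipolysis genes, 1 was higher and 3 were lower, with a median of -0.03. Mgll, which cleaves the last fatty acid from glycerol, stood at 9.86, 9.77 and 9.75 in wild type and at 9.35, 9.35 and 9.36 in knockout, groups that did not overlap, and it differed by -0.44 (limma adjusted p = 0.143). Pnpla2 and Lipe, the lipases of the earlier steps, named here after their values were seen, differed by -0.32 and -0.37. Lipa, the lysosomal lipase gene, differed by 0.40.

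Around lipoprotein lipase, 12 of 14 partner genes were measured, and their median was 0.055. At an unadjusted p under 0.05, 1 was higher and 2 were lower, against 6.81% and 8.31% of all probe sets. Gpihbp1 differed by 0.36 and the apolipoprotein gene Apoc1 by -0.39. Of 11 genes of fatty acid uptake and activation, 2 were higher, with a median of 0.067: Acsl4, an acyl-CoA synthetase for arachidonate, at 0.69, and Got2 at 0.34. Other probe sets of Acsl4 differed by 0.38 and, for the dimmest, by -0.21. Of 10 adipokine and receptor genes, 1 was higher, with a median of 0.12. It was Rarres2, the chemerin gene, at 6.46, 6.52 and 6.52 in wild type and 6.55, 7.17 and 7.15 in knockout, a difference of 0.46. The adiponectin receptor gene Adipor2 had no single direction. It differed by 0.21 on its brightest probe set and by -0.19 on the other, and the groups did not overlap on either. Of 12 transcription factors of fat genes, 3 were higher and 1 lower, with a median of 0.13, Klf15 at 0.30 and Cebpb at 0.33.

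The dim end of the scale was described with genes of liver, pancreas, retina and lens. These 10 genes lay between 2.20 and 6.24, with list means from 3.95 to 4.26 and a median difference of 0.0083. Alb, the 1 gene of this list under an unadjusted p of 0.05, and Ins2 both differed by 0.27. Cidec, Plin4 and the dim probe sets of Fabp4 lay inside this range on all arrays. The list's differences reached 0.27 in size, above those of Plin4 and of the dim Fabp4 probe sets and below the 0.40 of Cidec. Within the earlier title codes and the last run, in this order, the list median was 0.255 and -0.1325, so it turned sign. Cidec differed by 0.605 and 0.265 there and Plin4 by 0.17 and 0.04. The dim Fabp4 probe sets differed by 0.285 and 0.065, and by 0.285 and -0.04.

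**Figure D4:**
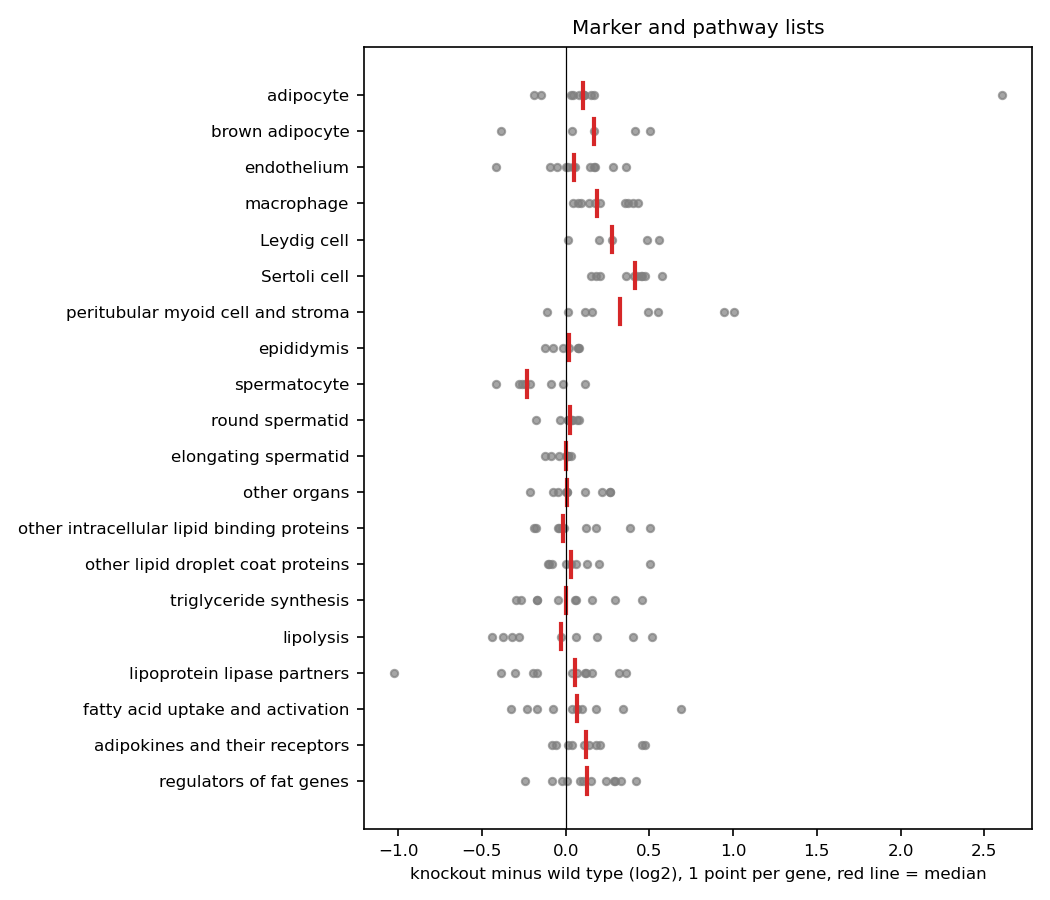
Knockout minus wild type on the log2 scale (horizontal axis) for the genes of 12 marker lists and 8 pathway lists, 1 grey point per gene, with the list median as a red line. Car3, at 2.60, stands apart in the adipocyte list, whose median is 0.10.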

How the data were processed

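Per the submitters' processing notes, the authors made the values with Affymetrix Expression Console 1.4.1. The deposited values are log2 values, a scale read from their range of 1.42 to 14.01. The summarization, the normalization and the genome build were not stated in the sources used here. Left out were 64 control probe sets, and no filter was set on the other 45037. Names came from the platform annotation, where 34945 probe sets had 1 symbol, 932 several and 9160 none.

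The values were fitted on genotype with lmFit and eBayes (R 4.3.3, limma 3.58.1), two-sided, with Benjamini-Hochberg adjustment over all probe sets. Adjusted p-values are from this fit unless an array left out or another setting is named beside them. The number of arrays limits the precision. In simulated data for this comparison, 18%, 82%, 96% and 100% of differences of 0.5, 1, 2 and 3 were recovered, and 6 of 44837 unchanged probe sets were called.

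Members and lists were chosen with earlier results of these data known. A gene was represented by its probe set of highest mean. Named were all members, the 2 genes of smallest p in each list and the 5 genes most like Fabp4 and Fabp9, passing over unnamed symbols; others are said to be named after their values were seen. Alternatives were blocks, filter, normalization, moderation, array weights and each array left out.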

Additional observations from a re-analysis of the deposited data

How the results depend on the processing

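The number of member probe sets past limma's threshold was 0 and stayed 0 with the array sets or title code runs as a block and with the unmoderated statistic. Among probe sets above the median level it was 1 of 10, where 0.351% of those tested passed. With quantile normalization it was 1, against 0.138% of all, and with an intensity trend and robust moderation 1, against 0.244%. Each time it was the brightest of Fabp5. It was 8 with array weights, where 7.07% of all probe sets passed. Leaving out 1 array at a time gave 0 to 4. The Fabp4 difference of 2.21 became 2.89 with array weights (limma adjusted p = 0.0201) and ran from 1.62 to 2.76 without single arrays. Its adjusted p ran from 0.0149 to 0.529 over 14 alternatives, the highest without knockout 3. The labels do not say that the replicate numbers of the titles pair the arrays. Deviations of same-numbered arrays correlated at 0.26, 0.07 and 0.12. Arrays of unlike number were not compared in this way, so these values cannot decide it. With the replicate numbers as a block 0 members and 28 probe sets in all passed, against 45. Counts whose groups do not overlap, with the knockout higher, ran from 7 to 13 without single arrays, 13 being without wild type 3. The share of all probe sets was not taken for these counts, and smaller groups separate more readily. These counts, and those at an unadjusted p (6 to 11), were added to the alternatives after seeing the data. Fabp4 minus Fabp9 was 1.15 when each gene's probe sets were averaged.

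Signs turned only for values near 0. The dimmer Fabp9 probe set was -0.11 with title code runs as a block and from -0.092 (without wild type 1) to 0.24 without single arrays. The brighter Fabp3 probe set was 0.014 with quantile normalization and 0.095 with array weights, and ran from -0.093 to 0.11 without single arrays, above 0 without wild type 3 and without knockout 1. The dimmer one ran from -0.063 to 0.013, above 0 without wild type 2, knockout 1 or knockout 3. Lcn8 was -0.017 with array weights and ran from -0.085 (without knockout 1) to 0.17 without single arrays. The cause was not tested. Of the other alternatives for single genes, 667 kept direction and side of the threshold and 37 passed it.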

Other observations

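Apoc2, the activator of lipoprotein lipase, stood at 7.76 on wild type 1 and between 4.43 and 4.58 on the other 5 arrays. Spink8, an epididymis gene, stood at 6.72 on wild type 3 and between 5.18 and 6.07 on the others. These genes were named after their values were seen, and no test was made of single arrays.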
